A study of Mus musculus with 14 samples.

Results

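The array used here carried, besides probes for annotated genes, 16181 non-control probes that the scanner files name only by a genomic interval followed by F or R. Probes named this way are taken here as the array's set for long intergenic noncoding RNA, and the files give no gene name for them. A probe was a member if its liver signal was well above background, as the scanner software calls it, on 4 or more of the 14 arrays. By that rule 5384 of the 16181 region probes (33.3%) were members, of 55681 probes in all. F and R are taken here as the forward and reverse strand of the interval, and intervals are given in the build named in the file headers, mm9 (NCBI37). Whether a transcript runs through a given interval was not tested, and the genes in or beside the intervals were not assigned here.

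RNA came from whole livers of 14 mice, all females of the hybrid strain B6C3F1, bought at 5 to 6 weeks of age. By gavage, 4 mice received corn oil only, 5 mice furan in corn oil at 1 mg/kg and 5 mice furan at 8 mg/kg, over 21 days, and liver was taken 4 h after the last dose. All 14 mice, the controls included, drank the thymidine analogue bromodeoxyuridine (BrdU) for 5 days. Furan is a ring-shaped contaminant of cooked food that liver cytochrome P450 turns into a reactive dialdehyde. Each array set Cy5-labelled liver RNA against Cy3-labelled universal mouse reference RNA, so each value below is a log2 ratio of liver over reference unless it is called a difference between dose groups. In whole liver, fewer cells of a type and less RNA per cell cannot be told apart.

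Long intergenic noncoding RNAs are transcripts from between protein-coding genes that are not translated. Some act where they are made, on the chromatin or transcription of nearby genes, and others act elsewhere in the cell as scaffolds or decoys for proteins. Most are made at lower levels than messenger RNAs and in fewer tissues, and some are induced by DNA damage or by the receptors that sense foreign chemicals. A region can be transcribed from either strand or from both, and the array carries forward and reverse probes for 1067 of its 3540 intervals.

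The arrays lay on 5 slides, of which 4 held 1 control, one 1 mg/kg and one 8 mg/kg mouse each, while the last held 1 mouse of each furan dose. On an array, 23065 to 29850 of all probes had a liver signal well above background, and no spot was saturated. Among cell type markers, 8 of 8 for hepatocytes, 5 of 5 for Kupffer cells, 4 of 4 each for sinusoidal endothelium and stellate cells and 3 of 3 for red blood cells were above background on all 14 arrays. It was 1 of 4 each for bile duct cells, pancreas and B and T cells, and 2 of the 4 pancreatic markers were above background on no array. No marker on these lists passed the test at 8 mg/kg against control.

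The 16181 region probes covered 3540 intervals on 20 chromosomes, from 62 to 7128487 base pairs long with a median of 7315.5. Of the 3540 intervals, 2101 overlapped another interval by at least 1 base, so merged together they made up 2223 separate loci. Forward probes numbered 8171, of which 2618 were members, and reverse probes 8010, of which 2766 were members. At least 1 member was found in 2200 of the intervals. Intervals with a member had a median length of 10431.5 base pairs and those without one 2658.5. Most interval strands (3917 of 4607) carried 2 or more probes, up to 10, and probes of one interval strand are not independent of each other.

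Detection of the region probes was uneven. No array had a liver signal well above background for 8751 of them, and 2046 reached it on 1 to 3 arrays, just short of membership. Among the members, 2539 were above background on all 14 arrays and 3563 on every array of at least 1 group. Only 3 members were above background in 1 dose group alone, while 209 reached it on no control array and 23 on no 8 mg/kg array. The share of region probes that were members ran from 25.6% on chromosome X to 40.3% on chromosome 5.

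The number of members detected differed between arrays, and slide 5 stood apart. In the controls it was 3610, 4656, 4551 and 3961. At 1 mg/kg it was 4350, 2980, 4705, 4900 and 5142, and at 8 mg/kg 3924, 5162, 3218, 5172 and 4174. The 2 lowest counts, 2980 and 3218, belonged to the 2 arrays of slide 5, and the ranges of the 3 groups overlapped. In a principal component analysis of the 5379 members with a value on every array, the first component held 23.6% of the variance. Of that component, 61.8% lay between slides and 36.1% between dose groups. The second (14.4% of the variance) went the other way, with 32.9% between slides and 58.0% between dose groups, and in the third (13.3%) 94.1% lay between slides. Slide was a term in the limma fits below.

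**Figure D1:**
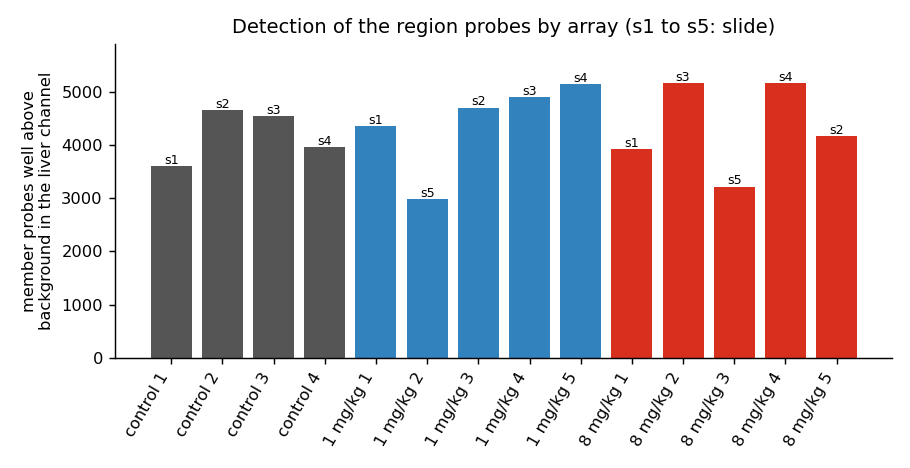
The bars give the number of member probes, of 5384, with a liver signal well above background on each of the 14 arrays, coloured by dose group and marked with the slide. Both arrays of slide 5 stand lowest, at 2980 and 3218, and the 3 groups overlap.

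At the edge of the rule, values just inside and just outside the 4-array limit were as follows. Just inside, the reverse probe of chr12:117623500-117643575 had a mean log2 ratio of -1.52 ± 0.15 (SD, n = 4) in the controls and -1.55 ± 0.29 (SD, n = 5) at 8 mg/kg. A forward probe of chr5:31856417-31916317, also on 4 arrays, stood at -0.52 ± 0.10 and -0.53 ± 0.24. Just outside, on 3 arrays, forward probes of chr11:51854060-51903278 stood at -2.03 ± 0.13 and -2.02 ± 0.46, of chr3:145313275-145315057 at -1.19 ± 0.17 and -1.38 ± 0.24, and of chr5:54053882-54054174 at -1.72 ± 0.19 and -1.69 ± 0.40. On both sides of the limit the control mean and the 8 mg/kg mean differed by less than the SD over the 8 mg/kg mice.

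In control liver the members sat close to the reference. Their mean log2 ratio over the 4 controls had a median of 0.18, with 5% below -1.07 and 5% above 1.24. Over all 28867 probes that passed the same filter the median was 0.07, with 5% below -2.03 and 5% above 2.80. The middle of the members was thus narrower than that of the whole array, but single regions reached far from the reference on both sides. Members were also detected less often: 2539 of 5384 were above background on all 14 arrays, against 18656 of the 23483 other probes past the filter. Whether signal level accounts for the narrower spread was not tested.

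Among the 2457 members above background in both channels on all 14 arrays, the highest liver ratios lay on chromosomes 6 and 17. A forward probe of chr6:40693617-40720167 gave 6.26, 6.11, 6.92 and 5.80 in the controls, 6.33, 6.12, 5.84, 6.87 and 6.55 at 1 mg/kg and 5.90, 6.91, 5.87, 6.01 and 5.94 at 8 mg/kg. The 3 groups overlapped throughout, and in each the mouse on slide 3 was highest. A forward probe of chr6:40699474-40719122, an interval inside the first, averaged 5.94 ± 0.49 in the controls (SD, n = 4). A reverse probe of chr17:32035750-32056000 averaged 6.20 ± 0.58 (SD, n = 4). Of the remaining members, 2 had higher control means, but their reference signal was well above background on at most 12 arrays. One of these, a reverse probe of chr13:28537223-28539860, averaged 6.41 ± 0.33 in the controls (SD, n = 4).

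The lowest ratios of the same 2457 members were found on chromosomes 5, 17 and 19. A reverse probe of chr5:23195569-23218551 gave -4.63, -4.55, -5.29 and -5.10 in the controls, and its means at 1 and 8 mg/kg, -4.95 ± 0.32 and -4.76 ± 0.28 (SD, n = 5), lay within that range. A forward probe of chr17:95150800-95180650 averaged -4.21 ± 0.23 in the controls and a reverse probe of chr19:5771425-5848475 averaged -3.60 ± 0.11 (SD, n = 4). None of the remaining members had a lower control mean than all of these.

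The comparison of 8 mg/kg with control asked which regions differed at the higher dose. The largest rises were in 2 stretches: forward probes of chr9:78107225-78118850 were higher by up to 3.73 ± 0.40 on the log2 scale (SE, 4 control and 5 dosed mice) and those of chr4:149445201-149445902 by up to 1.99 ± 0.17. Falls were smaller, led by a reverse probe of chr19:36699712-36763966 (difference -1.37 ± 0.14) and forward probes of chr8:10886200-10905925 (up to -1.33 ± 0.19). Of all 28867 probes tested, 3.48% passed an adjusted p of 0.05 in limma. Of the 5384 members 105 passed (1.95%): 54 rose, against a background of 2.24% of all probes, and 51 fell, against 1.24%. Among probes above background on all 14 arrays the shares were closer, 86 of 2539 members (3.39%) and 4.39% of all probes. At an unadjusted p under 0.05 the counts were 736 members (13.7%) and 19.4% of all probes. The median difference of the members was -0.029 on the log2 scale and that of all probes -0.00027.

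Most of the 105 differences were modest. At least 1.5-fold was reached by 34 probes and at least 2-fold by 10, and the smallest that passed was 0.32 on the log2 scale. Of the 105, 2 were above background in 1 dose group alone, so they were members only through that group, and 3 were above background on no control array. The balance of rises and falls depended on the scaling: with median centring in place of loess, which moved the median of all probes to 0.13, 126 members passed and 93.7% of them were higher, against 51.4% here. The 2 sets shared 59 probes. With the scanner's processed signals 44 passed and 77.3% were higher, without slide as a term 40 passed and 65.0% were higher, and in the authors' deposited values 83 passed and 59.0% were higher. The count also rested on single mice. It was 44, 40 and 47 without control replicate 1, 2 or 3, 38 and 45 without 8 mg/kg replicate 1 or 5, and 51 without the 3 arrays of slide 3.

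Rises and falls differed in where the regions stood against the reference. The 1 mg/kg mice are neither group of this comparison, but they enter its fit through the slide terms and the estimate of the spread. In these mice the 54 probes that rose had a median log2 ratio of -0.54, the 51 that fell one of 1.32, and all members one of 0.18. A ratio above 1 was found for 32 of the 51 falls and 8 of the 54 rises, and for 441 of all 5384 members (8.19%). The regions that fell were thus mostly ones whose RNA was more abundant in liver than in the reference. The same shares were not taken over all probes that passed, so the pattern is not shown to be particular to the regions. No test is given, since the probes were chosen by their dose difference.

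**Figure D2:**
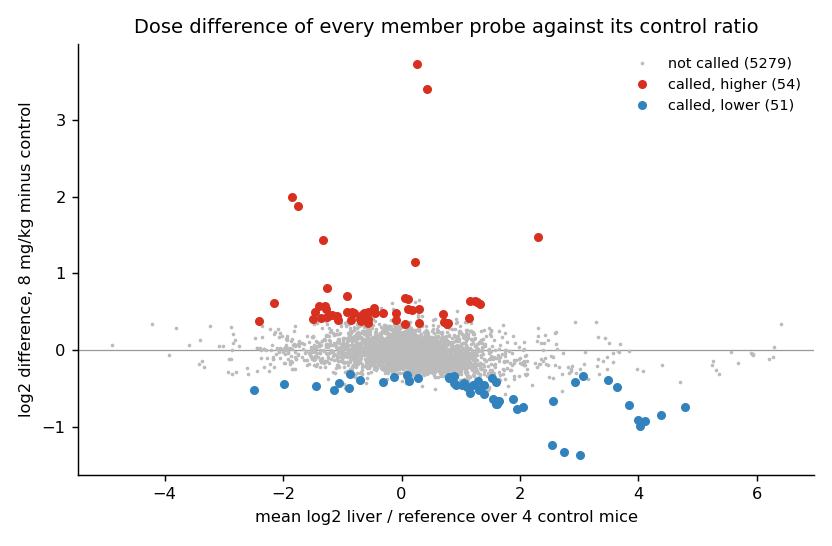
Each point is 1 of the 5384 member probes, with the mean log2 ratio of liver over reference in 4 control mice on the x axis and the fitted log2 difference, 8 mg/kg minus control, on the y axis. The 54 probes that rose (red) lie mostly at low ratios, with some above 1, among them forward probes on chromosomes 9 (2.30) and 17 (1.15). The 51 that fell (blue) reach far to the right.

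The largest rise of all members was in 2 forward probes of chr9:78107225-78118850. On the stronger of them the controls gave 0.40, -0.63, 0.52 and 0.78, the 1 mg/kg mice -1.16, -1.10, 0.34, 0.48 and -0.23, and the 8 mg/kg mice 4.98, 3.21, 3.88, 3.51 and 3.92. Every 8 mg/kg mouse stood above every other mouse, and the 2 lower groups overlapped. The rise was 3.73 ± 0.40 (SE) on the log2 scale, or 13.3-fold (adjusted p = 0.000213), and within the 4 slides it ran from 2.69 to 4.58. The other forward member rose by 3.40 ± 0.38 (adjusted p = 0.000251). Both calls held under all 31 alternatives, some of which give the same fit. The remaining 3 of the 5 forward probes of this interval were not members.

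The reverse strand of that interval rose too, by less. All 4 of its members passed, with rises of 1.15 ± 0.13, 0.67 ± 0.14, 0.54 ± 0.10 and 0.47 ± 0.09 (SE). Over the alternatives that tested them, the first 2 of these rises ran from 0.95 to 2.87 and from 0.50 to 2.49. The 2 forward rises ran from 3.34 to 4.10 and from 2.97 to 3.68. The strongest reverse probe gave 0.17, -0.05, 0.45 and 0.36 in the controls, 0.14, 0.08, 0.08, 0.18 and 0.36 at 1 mg/kg and 1.88, 1.38, 0.99, 1.31 and 1.10 at 8 mg/kg, with no overlap between 8 mg/kg and either other group. Of the 4, 2 were above background on no control array. Both met the 4-array rule only with the arrays at 8 mg/kg. The probe at 0.67 was above background on 5 of these and on 1 array at 1 mg/kg. The other was above background on 4 of these and on no other array. That these 2 passed is thus no separate support for the rise. Set against the lowest detectable level there, their liver signal at 8 mg/kg was at least 1.45-fold and at least 1.27-fold higher. Such a bound comes from other probes of the array and is open to dye bias. The call of the probe at 0.67 was lost without control replicate 1, 2 or 3 or 8 mg/kg replicate 1 or 5, with adjusted p-values of up to 0.0703, and without slide 3 (0.0684).

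Another probe reads the same stretch. The interval chr9:78104935-78116974 overlaps the one above and has 1 probe, on the forward strand. It gave 2.29, 1.94, 2.23 and 2.72 in the controls, 1.38, 3.12, 2.17, 2.06 and 1.94 at 1 mg/kg and 4.47, 3.55, 3.82, 3.73 and 3.85 at 8 mg/kg. The 8 mg/kg mice stood above both other groups, which overlapped each other, and the rise over control was 1.47 ± 0.25 (SE; adjusted p = 0.00577).

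The interval chr4:149445201-149445902 is only 702 base pairs long, and all 3 of its forward probes rose. The most changed gave -1.46, -1.73, -2.24 and -1.95 in the controls, -1.47, -1.10, -1.38, -1.36 and -2.02 at 1 mg/kg and 0.27, 0.47, -0.27, -0.04 and 0.27 at 8 mg/kg. The 8 mg/kg mice stood clear of both other groups, at about the level of the reference. The rises were 1.99 ± 0.17, 1.87 ± 0.15 and 1.44 ± 0.11 (SE), with adjusted p-values of 4.10e-05, 1.31e-05 and 1.31e-05. Of the 4 control arrays, 2 and 3 showed the 2 stronger probes well above background. All 3 calls held in every alternative that tested them, and with the scanner's processed signals the rises were larger, at 3.83, 3.18 and 2.56.

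**Figure D3:**
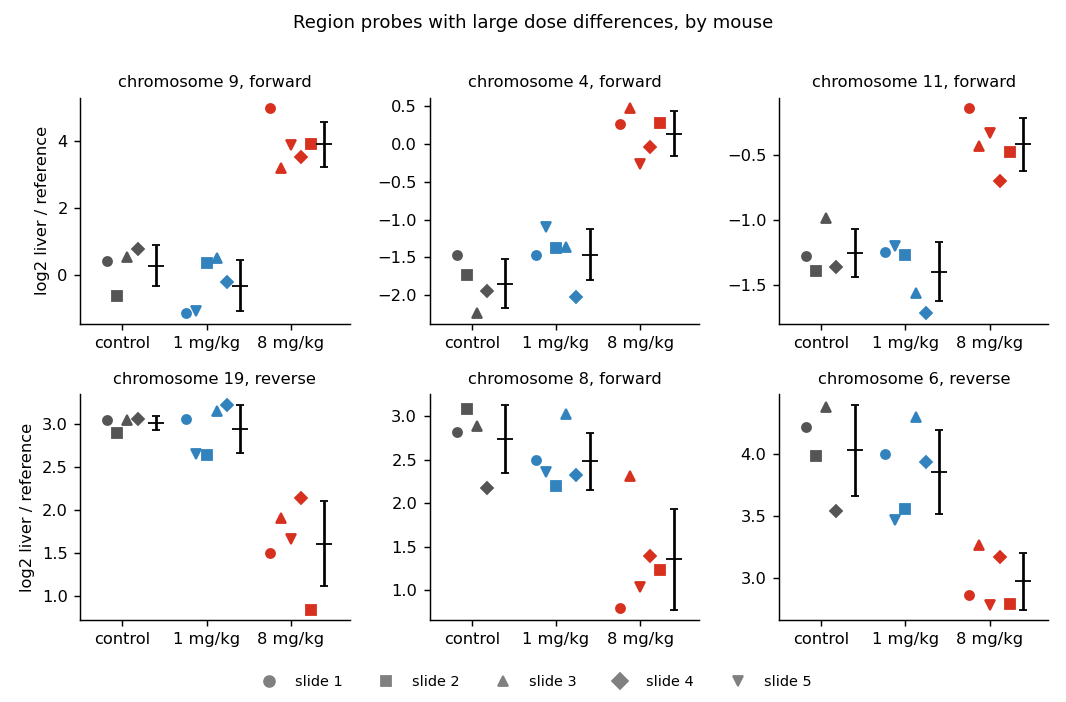
The panels show the log2 ratio of liver over reference in each of the 14 mice, by dose group and slide (marker shape), for 1 probe each of 6 intervals; black marks give the group mean and SD. In the upper panels every 8 mg/kg mouse lies above the other groups, by 3.73 (chromosome 9), 1.99 (chromosome 4) and 0.80 (chromosome 11) in the fit. In the lower panels the 8 mg/kg mice lie below, with 1 of them (slide 3) among the controls on chromosome 8.

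Further rises were smaller. A forward probe of chr11:6421951-6429173 gave -1.28, -1.39, -0.99 and -1.36 in the controls and -0.14, -0.43, -0.33, -0.70 and -0.48 at 8 mg/kg, without overlap, a rise of 0.80 ± 0.11 (SE; adjusted p = 0.00103). It reached that mark on 2 of the 4 control arrays, and with the processed signals the rise was 2.07. A forward probe of chr1:163508244-163586072 rose by 0.70 ± 0.10 (SE; adjusted p = 0.00103), again with no overlap.

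On chromosome 17, 3 of the 6 forward members of chr17:85418489-85427364 rose, the strongest by 0.64 ± 0.08 (SE; adjusted p = 0.000862). It gave 1.13, 1.12, 1.28 and 1.08 in the controls and 1.68, 1.92, 1.77, 1.88 and 1.62 at 8 mg/kg, and the groups stood apart. The only probe of chr17:85422370-85423168, an interval within it, rose by 0.60. Elsewhere on that chromosome, 9 probes rose by 0.40 to 0.50 on the 2 strands of chr17:39960567-39992817 and in chr17:39983902-39985688 (forward) and chr17:39979941-39981793 (reverse), which lie inside it.

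The call of a reverse probe of chr19:5801802-5802597 was weak. Controls gave -0.26, 0.25, 0.39 and -0.17 and the 8 mg/kg mice 0.24, 1.83, -0.33, 0.32 and 0.54, so the groups overlapped and the mouse on slide 3 stood highest. The rise of 0.69 ± 0.15 (SE; adjusted p = 0.0256) had the same sign in all 4 slides. It did not pass without control replicate 3, control replicate 4 or 8 mg/kg replicate 1 (adjusted p up to 0.103), nor without slide 3, where it was 0.46 (adjusted p = 0.0758).

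Among the falls, the strongest probe was a reverse one of chr19:36699712-36763966. It gave 3.05, 2.89, 3.05 and 3.05 in the controls, 3.06, 2.65, 2.64, 3.15 and 3.22 at 1 mg/kg and 1.50, 1.91, 1.66, 2.14 and 0.85 at 8 mg/kg. All 8 mg/kg mice were lower than all others, and they spread more widely than the controls. The probe fell by 1.37 on the log2 scale (SE 0.14, adjusted p = 0.000157). The other member of that interval strand did not follow: its difference was 0.10.

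On chromosome 8, forward and reverse probes of chr8:10886200-10905925 fell. The most changed forward probe gave 2.82, 3.08, 2.89 and 2.17 in the controls and 0.80, 2.31, 1.04, 1.39 and 1.23 at 8 mg/kg; the mouse on slide 3 (2.31) lay inside the control range. It fell by 1.33 (SE 0.19, adjusted p = 0.00151), but by 0.41 with the processed signals, where it did not pass. The second forward probe fell by 1.24 (SE 0.15), the third had a difference of -0.37, and 2 of the 4 reverse members passed, the larger falling by 0.76 (SE 0.13, adjusted p = 0.00586).

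The reverse strand of chr6:129151512-129208737 had 9 members of 10 probes, and 6 of them fell. The most changed gave 4.22, 3.98, 4.38 and 3.54 in the controls, 4.00, 3.47, 3.55, 4.30 and 3.93 at 1 mg/kg and 2.86, 3.26, 2.78, 3.16 and 2.79 at 8 mg/kg, with no overlap between control and 8 mg/kg. It fell by 0.99 (SE 0.13, adjusted p = 0.000924), and the next 2 by 0.93 and 0.91. All 9 differences were negative, from -0.99 to -0.43. A probe that fell by 0.71 lost its call without control replicate 1 or 2 or 8 mg/kg replicate 1 or 5, with adjusted p-values of up to 0.106.

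All 3 forward probes of chr1:71939741-71947891 fell. The most changed gave 4.18, 4.10, 5.19 and 4.07 in the controls and 3.33, 4.31, 3.55, 3.39 and 3.03 at 8 mg/kg. The groups overlapped because both mice on slide 3 were high, and within each of the 4 slides the 8 mg/kg mouse was lower, by 0.68 to 1.06. The fit gave -0.85 (SE 0.13, adjusted p = 0.00211). The other 2 had differences of -0.74 and -0.66, of which the first did not pass without control replicate 2 or 8 mg/kg replicate 1 (adjusted p up to 0.0638). On chromosome 19, 4 of the 5 reverse probes of chr19:57426515-57435165 fell, the most changed by 0.75 (SE 0.13, adjusted p = 0.00785).

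Seen by interval, the 105 probes lay in 68 interval strands (35 rising, 33 falling) of 64 intervals, and merging overlaps left 57 loci. None of the 68 held both a rise and a fall. Of the 58 with 2 or more members, 22 had at least 2 probes that passed and 36 had 1, and in 7 every member passed. All members had the same sign in 48 of the 58 (82.8%). That was so in 628 of 1306 interval strands with 2 or more members and no call (48.1%). A probe that passes tends to carry its own sign into that count, so the first share is a description only.

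**Figure D4:**
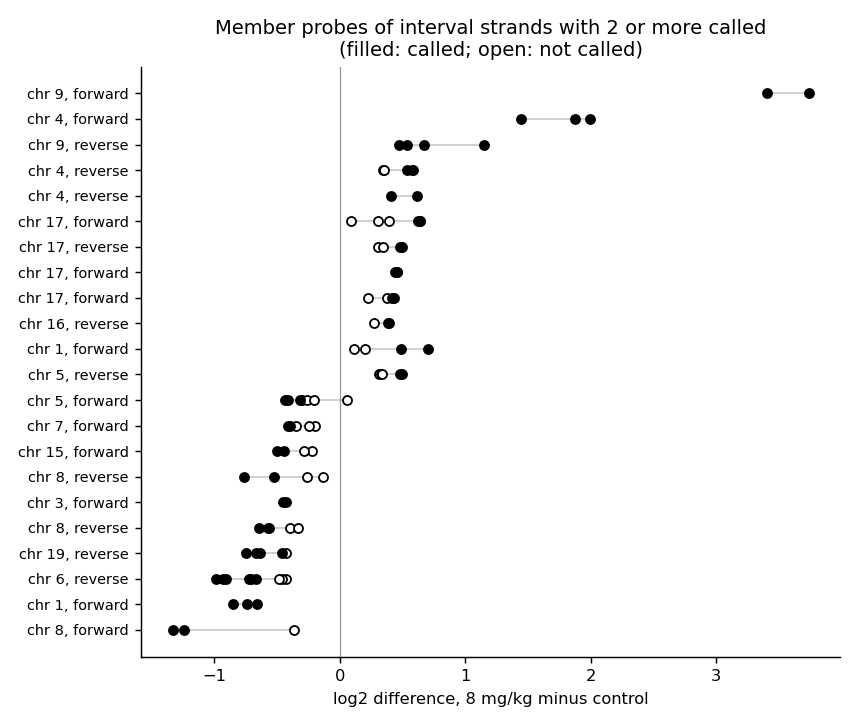
Each line is 1 of the 22 interval strands with at least 2 probes that passed, named by chromosome and strand, and each point is a member probe at its log2 difference, 8 mg/kg minus control (filled, passed; open, did not pass). Probes of an interval strand lie on the same side of 0 in all but the forward strand on chromosome 5, where 1 open point lies just above it.

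Both strands could be compared in 1067 intervals that had forward and reverse probes on the array. Members were found on both strands in 528 of them (49.5%), on the forward strand alone in 190, on the reverse strand alone in 207 and on neither in 142. If detection on all 14 arrays was asked for, both strands passed in 220. Control ratios of the 2 strands were only loosely related over the 528 intervals (Pearson r = 0.20, Spearman rho = 0.25, probes of the same arrays). The median size of the gap between strands was 0.35, and it exceeded 1 in 78 intervals.

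The widest gap was in chr17:32035750-32056000. Its reverse probes averaged 5.73, 5.87, 6.95 and 5.70 in the controls, and its forward probes 0.57, 0.81, 0.82 and 0.65. Forward minus reverse was -5.35 ± 0.52 (SD, n = 4). At 8 mg/kg the reverse probes stayed between 5.58 and 6.61 and the forward ones between 0.52 and 0.85, so the gap was present in every mouse.

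In chr17:95150800-95180650 the forward strand stood at -4.21 ± 0.23 and the reverse at -0.11 ± 0.18 (SD, n = 4). In chr19:5771425-5848475 the 10 forward members stood at 0.49 ± 0.18 and the only reverse member at -3.60 ± 0.11. In chr6:40693617-40720167 the forward strand stood at 4.91 ± 0.52 and the reverse at 0.85 ± 0.21. None of these 4 intervals had a probe of its own that passed at 8 mg/kg against control. The interval chr19:5801802-5802597, whose reverse probe had the weak call given above (0.69, adjusted p = 0.0256 in limma), lies inside chr19:5771425-5848475. Each control ratio is set against the same strand in the reference RNA, so it does not say which strand had more RNA.

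Dose differences were compared between strands in the same way. Of the 528 intervals with members on both strands, 500 had no call, 16 had calls on the forward strand only, 8 on the reverse strand only and 4 on both, the same way in all 4. The differences of the 2 strands had the same sign in 295 intervals (55.9%) and opposite signs in 233. Pearson's r over intervals was 0.28, 0.14 without chr9:78107225-78118850, and Spearman's rho was 0.10. A call on 1 strand does not show that the other differs, so the gap itself was tested.

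For each of the 28 intervals with a call, forward minus reverse was taken on every array and compared between the 4 controls and the 5 mice at 8 mg/kg by an exact two-sided permutation test. The smallest p that 4 against 5 mice allow is 0.00794, and the p-values are not adjusted. The permutation takes no account of slide, since within the 4 slides that hold both groups no p under 0.125 is possible. The intervals were taken because a strand had passed, so the tests are not independent of that choice. The strands differed in dose response at p under 0.05 in 14 of the 28. Within slides, forward minus reverse moved one way on all 4 slides in 13 of these 14 intervals and in 6 of the 14 others, so a p above 0.05 here does not show that the strands acted alike. The count of 14 fell to 8 without control replicate 1 or 4 or 8 mg/kg replicate 1 or 5, to 8 in the authors' deposited values and to 4 with the processed signals.

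In chr9:78107225-78118850 the difference between group means was 3.52 on the forward and 0.69 on the reverse strand, a gap of 2.83 at the smallest possible p (0.00794, exact permutation test). Forward values averaged 0.50, -0.56, 0.52 and 0.92 in the controls and 4.81, 3.16, 3.94, 3.51 and 3.91 at 8 mg/kg. Reverse values averaged 0.32, 0.11, 0.29 and 0.42 in the controls and 1.31, 0.92, 0.82, 0.98 and 0.84 at 8 mg/kg. Of the 4 reverse members, 2 were above background on no control array. The reverse difference, and with it the gap and its p, thus rests partly on values that were not measured in the controls. These 2 probes also met the 4-array rule only with the arrays at 8 mg/kg. The reverse members that rose by 1.15 and 0.67 here rose by up to 2.87 and 2.49 in other settings, so the size of the gap depends on the setting. The only reverse member above background on all 14 arrays gave 0.64, 0.55, 0.73 and 0.85 in the controls and 1.40, 1.05, 1.21, 1.14 and 0.99 at 8 mg/kg, a rise of 0.47 ± 0.09 (SE).

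In chr6:129151512-129208737 the fall was on the reverse strand. Reverse values averaged 2.83, 2.65, 2.93 and 2.39 in the controls and 1.80, 2.19, 1.86, 2.19 and 1.76 at 8 mg/kg, and forward values 0.54, 0.61, 0.69 and 0.54 against 0.31, 0.53, 0.21, 0.48 and 0.47. The differences were -0.74 and -0.19 (exact permutation p = 0.00794). The same p was reached by chr17:85418489-85427364 (forward 0.46, reverse 0.13), chr1:163508244-163586072 (0.39 and 0.01) and chr19:57426515-57435165 (-0.17 and -0.61).

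In other intervals the p-values for the gap between strands were larger. In chr11:6421951-6429173 the forward difference was 0.50 and the reverse -0.02 (exact permutation p = 0.0159), and in chr8:10886200-10905925 they were -1.03 and -0.44 (exact permutation p = 0.0476). In chr17:35080914-35090009 both strands had a probe that rose, and the mean differences were 0.12 forward and 0.15 reverse (exact permutation p = 0.698). In chr17:39960567-39992817, where 2 forward and 3 reverse probes rose, they were 0.34 and 0.41 (exact permutation p = 0.50).

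**Figure D5:**
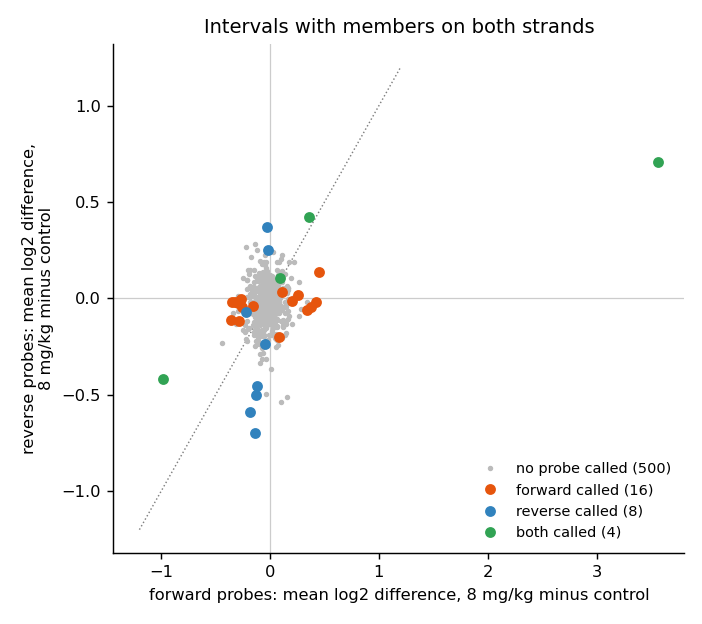
Each point is 1 of the 528 intervals with members on both strands, with the mean log2 difference (8 mg/kg minus control) of its forward probes on the x axis and of its reverse probes on the y axis; the dotted line marks equal values. Intervals with a call on the forward strand only (16, orange) spread along the x axis and those with one on the reverse strand only (8, blue) along the y axis, and the point at 3.57 and 0.71 is on chromosome 9.

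The comparison of 8 with 1 mg/kg shares its 8 mg/kg mice with the one above. Its largest differences were again on chromosomes 9 and 4 among the rises and 19 and 8 among the falls. It gave 5.06% of all probes and 191 members (3.55%), of which 81 were higher (background 2.28%) and 110 lower (background 2.79%). The split moved with the scaling here too: 42.4% were higher, against 80.4% of 51 with the processed signals, 67.2% of 64 with median centring and 52.8% of 176 in the authors' deposited values. Without slide as a term it was 60.7% of 56. The count fell to 73, 93, 113 and 126 without 1 mg/kg replicate 1, 2, 3 and 5, and to 78, 93 and 92 without 8 mg/kg replicate 1, 3 and 5. Both counts of 93 come from the same fit in effect, since slide 5 then holds 1 mouse, whose value its slide term takes up.

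Probes of the same intervals had the largest differences here. The 2 forward probes of chr9:78107225-78118850 were 4.24 ± 0.37 and 3.89 ± 0.35 higher (SE; 18.8-fold and 14.8-fold), and the probe of chr9:78104935-78116974 1.75 ± 0.23. The 3 probes of chr4:149445201-149445902 were 1.65, 1.60 and 1.31 higher. Among the falls, chr19:36699712-36763966 reverse had a difference of -1.33 ± 0.13, and chr8:10886200-10905925 forward differences of -1.17 and -1.12. On chromosome 8 the groups overlapped, since the 8 mg/kg mouse on slide 3 stood within the 1 mg/kg range. In chr19:5801802-5802597, all 3 reverse probes passed here, with differences of 0.78 to 0.86. On the probe with the weak call given above, the groups overlapped. The 1 mg/kg mice gave -0.68, -1.14, 0.15, 0.43 and -0.06 and the 8 mg/kg mice 0.24, 1.83, -0.33, 0.32 and 0.54. How these calls held in other settings is not given.

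At 1 mg/kg against control no probe passed, neither among the 5384 members nor among all 28867 (0%). At an unadjusted p under 0.05 there were 350 members (6.50%) and 6.7% of all probes. The members with the smallest p were a forward probe of chr7:118248833-118267766 with a difference of 0.42 ± 0.09 (SE) and a reverse probe of chr13:28537223-28539860 with 0.53 ± 0.12. The latter gave 6.56, 6.46, 6.69 and 5.93 in the controls and 7.09, 7.93, 6.55, 7.28 and 6.79 at 1 mg/kg, and the groups overlapped. Forward probes of chr4:126710640-126721240 and chr15:58928225-58939975 had differences of -0.46 ± 0.11 and 0.42 ± 0.10. The adjusted p of these 4 was 0.598 to 0.604.

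Annotated noncoding RNA genes on the same arrays served as a comparison. Of 53 genes on the list, 28 had a probe and 25 passed the filter. At 8 mg/kg against control none rose or fell in limma, and their median difference was -0.016. Malat1, an abundant RNA of nuclear speckles, had a difference of 0.05 ± 0.09 (SE), and Neat1, the scaffold RNA of paraspeckles, one of -0.38 ± 0.11 (adjusted p = 0.0716). At 8 against 1 mg/kg 3 of the 25 rose, where 2.28% of all probes did, and none fell, where 2.79% did: Mir17hg, the host transcript of a microRNA cluster, by 0.50 ± 0.10, H19, an imprinted RNA of the fetal liver, by 0.46 ± 0.10, and Snhg12, which hosts small nucleolar RNAs, by 0.29 ± 0.08.

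Gene probes with the most similar profile were looked up for the leading intervals, after their values were seen. Each interval strand was set against 13773 gene symbols over the 14 arrays, after taking out slide means, so each r is the top of a long list and is a description. Dose means were not taken out. The dose difference for which an interval was chosen stays in both profiles, and a high r can come from that alone. For the forward strand of chr9:78107225-78118850 the nearest were Gsta1 (r = 0.999), Gm10639 (0.998) and Gsta2 (0.986), and Gsta1, a glutathione transferase that conjugates reactive compounds, had a difference of 3.48 at 8 mg/kg. For chr4:149445201-149445902 they were Aebp2 (0.984), Aldh3b1 (0.978) and Ccng1 (0.977). In that order, these genes had differences of 0.54, 0.47 and 1.01 at 8 mg/kg against control. Ccng1 is a cyclin known as a target of p53, and a link between this interval and p53 was not tested. For the reverse strand of chr6:129151512-129208737 they were Auh (0.986), Mettl26 (0.977) and Scnn1a (0.972).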

How the data were processed

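Liver RNA (Cy5) of 14 mice and a common reference RNA (Cy3) were read on 2-colour Agilent arrays in 1 dye orientation. The authors' deposited scanner files hold median spot and background intensity per channel from Feature Extraction 10.7.3.1, per the file headers, and, per the same headers, processed intensity values that are background-subtracted and dye-normalized. The authors also deposited linear ratio values, liver over reference, with column medians of 0.976 to 0.990. Their log2 correlated at 0.992 to 0.995 with the ratios used here, and how they were normalized is not stated in the labels or headers.

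Here, medians were corrected with normexp (offset 50), and log2 ratios were normalized by loess within arrays, with 3671 control spots at weight 0. Outlier spots (178 to 336 an array) were dropped and repeated spots averaged to 55681 probes. All 28867 probes well above background in Cy5 on 4 or more arrays were fitted together by limma 3.58.1 (functions lmFit, eBayes; R 4.3.3, version 1.17.8 of data.table) on 14 arrays with slide as a fixed block, and p-values were adjusted by Benjamini-Hochberg over all of them at 0.05. Scan and slide coincide. Fold changes are from this fit; SD values are over mice. The number of arrays limits the precision. The submitters call the mice of a group biological replicates.

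Probes were named by rule: of those that passed, were above background on every array of 1 group and had 1 sign in every slide, the 12 largest rises and falls at 8 mg/kg against control and the 6 largest against 1 mg/kg; the 4 smallest p-values at 1 mg/kg; the 4 highest and lowest control ratios among members above background in both channels on all arrays; up to 8 intervals with both strands and the 4 with the widest control gap; and 3 on each side of the detection limit. Other intervals named were picked after their values were seen. A planned step, the nearest gene within 50 kb, was not run because gene probes carry no positions. The members and lists were chosen with earlier results of these data known. On simulated data the fit of 8 mg/kg against control (28867 probes) recovered 98.5% of 200 probes changed by 1 log2 unit, with 4.83% false calls. That change is larger than most found here, since 10 of the 105 members that passed reached 2-fold. Recovery of smaller changes is not given. Through RefSeq's GRCm38.p6 annotation, 26413 probes were matched to gene symbols. Plots came from matplotlib 3.10.9 (Python 3.11.15).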

Additional observations from a re-analysis of the deposited data

Results flagged for a closer look

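In 117 sets of values (a named probe in 1 dose group), 9 had a mouse far from the rest of its group (7.69%); chance alone marks about 1 in 20. Of these 9 values, 5 came from the 3 mice on slide 3: control replicate 3 on a forward probe of chr1:71939741-71947891 (5.19, the next control at 4.18), 8 mg/kg replicate 2 on another probe of that strand (4.91, next 3.73), on a forward probe of chr6:40693617-40720167 (6.91, next 6.01) and on a reverse probe of chr17:32035750-32056000 (6.68, next 5.99), and 1 mg/kg replicate 4 on a reverse probe of chr8:10886200-10905925 (2.86, next 1.78).

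The other 4 values came from other slides. Control replicate 1 was high on a reverse probe of chr6:129151512-129208737 (1.83, next 1.53), and control replicate 2 was low on the reverse probe of chr19:36699712-36763966 (2.89, next 3.05). On a forward probe of chr7:118248833-118267766 the 8 mg/kg replicate 3 was low (0.53, next 0.99). On a forward probe of chr5:31856417-31916317 the 1 mg/kg replicate 5 was low (-1.03, next -0.47).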

How the results depend on the processing

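The count of 105 members at 8 mg/kg against control became 40 without slide in the model, 39 with only the arrays of the 2 groups compared, 51 without slide 3, 44 with the scanner's processed signals, and 38 to 98 when 1 mouse was left out. At 8 against 1 mg/kg the count of 191 became 56, 51 (processed signals), 64 (median centring), 93 without slide 5 (chosen after seeing the data) and 73 to 212 with 1 mouse left out. At 1 mg/kg it stayed 0 under all 31 alternatives. Not all 31 are distinct: Aquantile scaling after loess left the counts of 105 and 191 as they were. Leaving out slide 5, 1 mg/kg replicate 2 or 8 mg/kg replicate 3 gave the same 70 and 93. The median difference of members at 8 mg/kg against control, -0.029, became -0.0059 with processed signals, 0.060 with median centring, -0.0044 from the liver channel alone, -0.053 for probes above background on all 14 arrays, and -0.034 to -0.023 with 1 mouse left out. Intervals with both strands detected fell from 528 to 220 at 14 arrays. The count of 14 intervals whose strands differed became 4 with processed signals, 8 in the authors' deposited values and 8 to 11 with 1 mouse left out; chr6:31233512-31241062 reversed, from -0.18 to 0.42, with processed signals. The cause was not tested. Of the 24 probes named at 8 mg/kg against control, 12 kept their call under every alternative that tested them, 20 under every loss of 1 mouse, and none changed sign. Replicate numbers did not pair the mice: over 13 same-numbered pairs the correlation of deviations ran from -0.42 to 0.23, with 5 over 0.1. A replicate block in place of slide gave 15 members for the high dose over control, 0 for the low dose over control and 27 for the high over the low dose. A filter on every control and 8 mg/kg array, chosen after seeing the data, gave 108. Signal over background limits the reading of the 209 members above background on no control array.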
